A study of Rattus norvegicus with 3 samples.

Results

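Cytosolic ribosomal protein genes were followed across 2 doses of inorganic polyphosphate in rat osteoblast-like cells. They were taken as every gene whose name on the array begins with Rpl or Rps followed by a digit or a p, leaving out the Rps6k kinases. This gave 95 gene names out of 26115 on the array, measured by 166 of 30367 probes and 283 spots. The large subunit had 59 names (Rpl, 108 probes) and the small subunit 36 (Rps, 58 probes). All 76 of the 76 listed standard subunit proteins that follow this naming were on the array, 46 of the large and 30 of the small subunit. The other 19 names included paralogues, retained copies and 1 binding protein, Rps19bp1, which is no ribosomal subunit. The rule does not take genes such as Rpsa, Fau and Gnb2l1 (Rack1), which encode ribosomal proteins under other names.

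The cytosolic ribosome joins a small subunit, which holds the mRNA and reads its codons, to a large subunit, which forms the peptide bond and carries the exit tunnel for the new protein. Its proteins are needed in equal numbers, one copy each apart from the acidic stalk proteins, and their mRNAs are among the most abundant in growing cells. In mammals many of these mRNAs begin with a tract of C and T bases (the 5′ terminal oligopyrimidine or TOP motif), through which mTORC1 and Larp1 control their translation and stability. Osteoblasts making collagen and other matrix proteins rely on a large ribosome pool.

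The cells were ROS17/2.8, a rat osteosarcoma line with osteoblast properties, so the groups describe a tumour line and not primary bone cells. Confluent cultures in a medium with L-ascorbate phosphate and β-glycerophosphate received Poly(P), a chain of phosphate residues, at 1 mg/ml (high dose) or 0.01 mg/ml (low dose) for 24 h, or none (control, for which the labels give no time). Each group holds 1 array, and all 3 arrays lay on the same slide. No difference below therefore has a replicate check, and no p-value can be given. Array position and group cannot be told apart. Less RNA of a gene per cell and fewer cells that hold it cannot be told apart in bulk RNA either.

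Values are scaled signals, that is multiples of the 75th percentile of the array's own spots, and differences are log2 ratios of these. The number after ± is called spot error here: the uncertainty of a log2 ratio, as 1 standard error, that follows from the scatter between repeat spots. Variation from culture, extraction and labelling is no part of it. Probes well above background made up 55.9% to 57.2% of those on an array, and no spot was saturated. Of the osteoblast markers, 7 of 9 were well above background on every array, with summed scaled signals of 28.8, 28.7 and 28.5 at the high dose, the low dose and in the control. The other 2, the osteocyte genes Phex and Dmp1, were not well above background on any array. Chondrocyte, leukocyte, endothelium, adipocyte, muscle and germ cell lists each had 1 to 3 of 5 markers above background, and the epithelium list had 0. The adipocyte sum was 7.65, 7.27 and 6.88 in the same order, and its part in the results was not tested. The 8 spike-in control probes above background gave a mean log2 ratio to the control of -0.15 (high dose) and -0.16 (low dose). Centring the arrays on them moves the median of all measured genes to 0.15 and 0.16. The ratios below are relative to the array's percentile. Spike-in centring would put 91 of 92 ribosomal protein genes above 0 at the high dose and 92 of 93 at the low dose. Only Rpl10l would stay below 0. Of all measured genes, this centring would put 81.5% and 88.7% above 0.

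The start sites of these genes show what the family shares beyond its name. The windows below run 5′ to 3′ from 20 bases before to 20 bases after the first annotated base, from RefSeq's promoter table of the GRCr8 assembly. Capitals mark an unbroken run of at least 7 C or T bases that reaches within 5 bases of that first base. The first 6 genes have such a run and the last 4 do not, and all belong to the genes described below.
Rpl27a (chr1:172974553-172974592, + strand): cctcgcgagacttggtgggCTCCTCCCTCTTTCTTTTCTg
Rps24 (chr16:96497-96536, + strand): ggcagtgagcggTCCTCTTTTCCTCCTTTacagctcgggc
Rps15a (chr1:181860265-181860304, - strand): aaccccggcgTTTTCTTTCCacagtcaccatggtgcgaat
Rps27 (chr2:177964587-177964626, - strand): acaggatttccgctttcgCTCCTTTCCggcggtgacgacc
Rps28 (chr7:15311314-15311353, - strand): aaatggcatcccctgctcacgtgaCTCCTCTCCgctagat
Rplp0 (chr12:46718371-46718410, - strand): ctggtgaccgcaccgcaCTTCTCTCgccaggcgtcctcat
Rpl7a (chr3:30637116-30637155, + strand): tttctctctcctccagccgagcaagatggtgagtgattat
Rpl36a (chrX:102059429-102059468, + strand): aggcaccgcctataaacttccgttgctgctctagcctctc
Rps19 (chr1:89608668-89608707, + strand): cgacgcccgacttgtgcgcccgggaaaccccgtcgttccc
Rps6 (chr5:106420521-106420560, - strand): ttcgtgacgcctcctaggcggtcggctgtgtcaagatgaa
Among the standard members with an entry in the table, 43 of 61 (70.5%) had such a run, against 12.5% of all 27457 promoters and 11.1% of 63 mitochondrial ribosomal protein genes. The share was 68.4% of 38 Rpl and 73.9% of 23 Rps genes. On the opposite strand, where the same run reads as A and G, only 3.28% of the standard members matched, against 14.5% of all promoters. A run is a match of letters near an annotated start, which can lie some bases from the true one, and no match says nothing about how the mRNA is regulated.

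At the high dose the ribosomal protein mRNAs sat almost where they were in the control. Their median log2 ratio was 0.027 over the 92 genes that both arrays measured above background, a 1.02-fold difference, with the middle of the genes between -0.0052 and 0.059. The median of all 14495 measured genes was -0.0087. None of these 92 lay 2-fold apart, as did 0.117% of all measured genes. Only Rps19bp1 was 1.2-fold higher and only Rpl10l 1.2-fold lower, where all measured genes gave 7.16% and 7.87%. Both were dim single values within 2 spot errors.

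More of the family lay slightly above the control than below it. Of the 92 genes, 67 (72.8%) were above 0, against 47.9% of all measured genes and 53.7% of the other bright genes. With each array centred on its median measured probe the share was 62.0% against 45.3%, with normexp and quantile normalization 62.0% against 49.0%, and with spike-in centring 98.9% against 81.5%. Beyond 2 spot errors, 9 were higher, or 9.78% against 10.7% of all measured genes, and 2 were lower, or 2.17% against 12.8%. Of the other bright genes, 7.77% were higher and 10.4% lower. For the 86 members among the bright genes these shares were 10.5% and 2.33%. The members' share of clearly higher genes was thus about that of all measured genes and somewhat above that of the other bright genes. Their share of clearly lower genes was smaller than in either set. Their ratios also scattered little. For the 86 members among the brightest 10% of genes the SD between genes was 0.058, with 0.050 to be had from spot error alone, while the 1364 other bright genes had an SD of 0.10 with a spot error of 0.064.

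**Figure D1:**
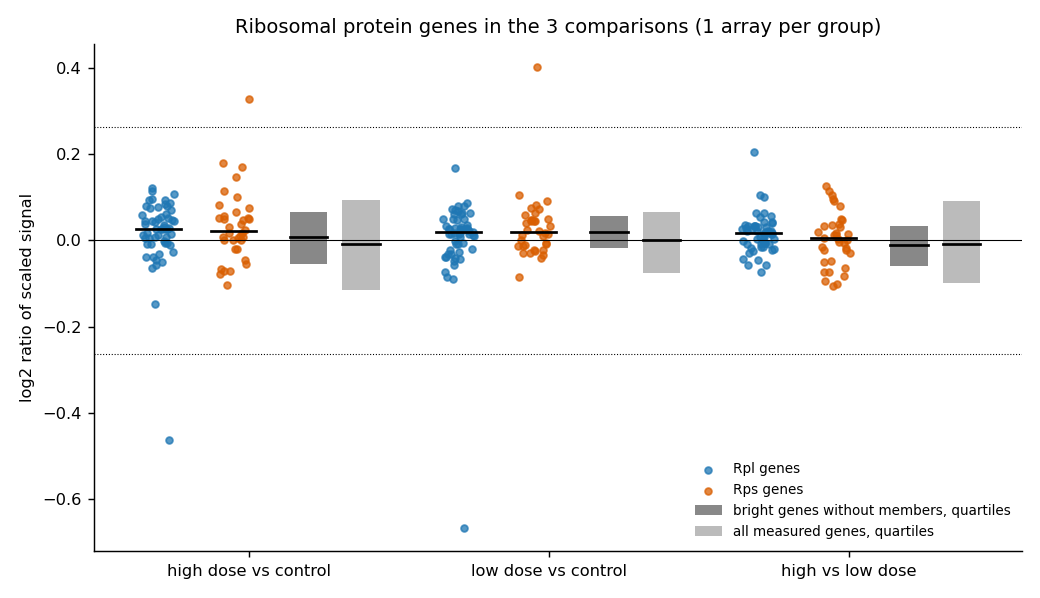
Log2 ratios of the scaled signal for each Rpl gene (blue) and Rps gene (orange) in the 3 comparisons, with grey boxes from the lower to the upper quartile of other bright genes and of all measured genes, black bars at the medians and dotted lines at 1.2-fold. The members cluster around medians of 0.027, 0.019 and 0.014, inside 1.2-fold except for the dim Rpl10l and Rps19bp1; centring on the spike-in probes would lift the first 2 medians to 0.18.

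The small subunit held the genes furthest above the control. Rps14, a protein of the platform that lines the mRNA exit, had a mean scaled signal over its 3 probes of 49.1 at the high dose, 45.6 at the low dose and 43.3 in the control. The log2 ratio of high dose to control was 0.18 ± 0.038, with the separate probes between 0.14 and 0.22. The low dose array lay between the other two for each of the 3 probes.

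Rps15a, a protein of the small subunit body, showed the same order, with 80.4 at the high dose, 76.0 at the low dose and 71.4 in the control. Its log2 ratio was 0.17 ± 0.051, and its probes gave 0.11 and 0.23. One of these lies within a single stretch at chr1:176321940-176321999 of the rn4 build, on the minus strand. The other covers chr1:176322825-176327352, far more than its 60 bases, so it crosses at least 1 intron and reads spliced RNA. Rps15al1, a copy of Rps15a with a single spot, gave 79.7, 73.6 and 72.0 and a log2 ratio of 0.15 ± 0.073. How much RNA these 2 names share on the array was not tested.

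Rps27, a zinc-binding protein of the small subunit, stood at 86.7 at the high dose, 79.5 at the low dose and 80.0 in the control. Against the control, the high dose gave a log2 ratio of 0.12 ± 0.044, with probes at 0.087 and 0.14. The low dose gave -0.011 ± 0.044, the mean of probes of opposite sign at -0.0835 and 0.0621. With normexp background correction and quantile normalization the high dose value was 0.070. Rps12, found at the beak of the small subunit head, gave 259, 251 and 242, a log2 ratio of 0.10 ± 0.044 for high dose against control.

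At the other end of the small subunit, Rps28, which sits where the mRNA leaves the head, had 227 at the high dose, 238 at the low dose and 244 in the control. Its log2 ratio was -0.10 ± 0.051 from a single probe. Rps26, which contacts the mRNA upstream of the start codon, gave 56.5, 60.4 and 59.7 and a ratio of -0.079 ± 0.051. Both were lowest on the high dose array, but Rps26 lay within 2 spot errors of the control. Rps4y2, a copy of the subunit protein S4, had a mean ratio of -0.071 ± 0.044, made of probes that disagreed at -0.18 and 0.037.

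In the large subunit, Rpl27a was the highest standard member. It stood at 48.2 at the high dose, 47.0 at the low dose and 44.5 in the control, and its log2 ratio of 0.11 ± 0.036 came from probes at 0.11 and 0.12. Rpl36a, near the exit site for spent tRNA, gave 120, 117 and 112 and a ratio of 0.095 ± 0.038 over 3 probes between 0.020 and 0.16. Another Rpl36a probe was not well above background on any array. Counting that probe too would raise the ratio to 0.23. Rpl35a, a gene mutated in Diamond-Blackfan anaemia, gave 167, 163 and 157 and a ratio of 0.095 ± 0.034. In all 3 genes both treated arrays were above the control. Rpl17, at the rim of the exit tunnel, was the remaining gene above 2 spot errors, at 0.081 ± 0.036.

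Rpl7a, a protein on the side of the large subunit, was the lowest standard member and the mirror image of these. It stood at 90.0 at the high dose, 93.6 at the low dose and 99.6 in the control. The log2 ratio was -0.15 ± 0.073, from 1 spot per array. Rpl13 gave 179, 188 and 186 and a ratio of -0.058 ± 0.073, also from 1 spot and within its error. The 76 standard members thus spanned -0.15 to 0.18.

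**Figure D2:**
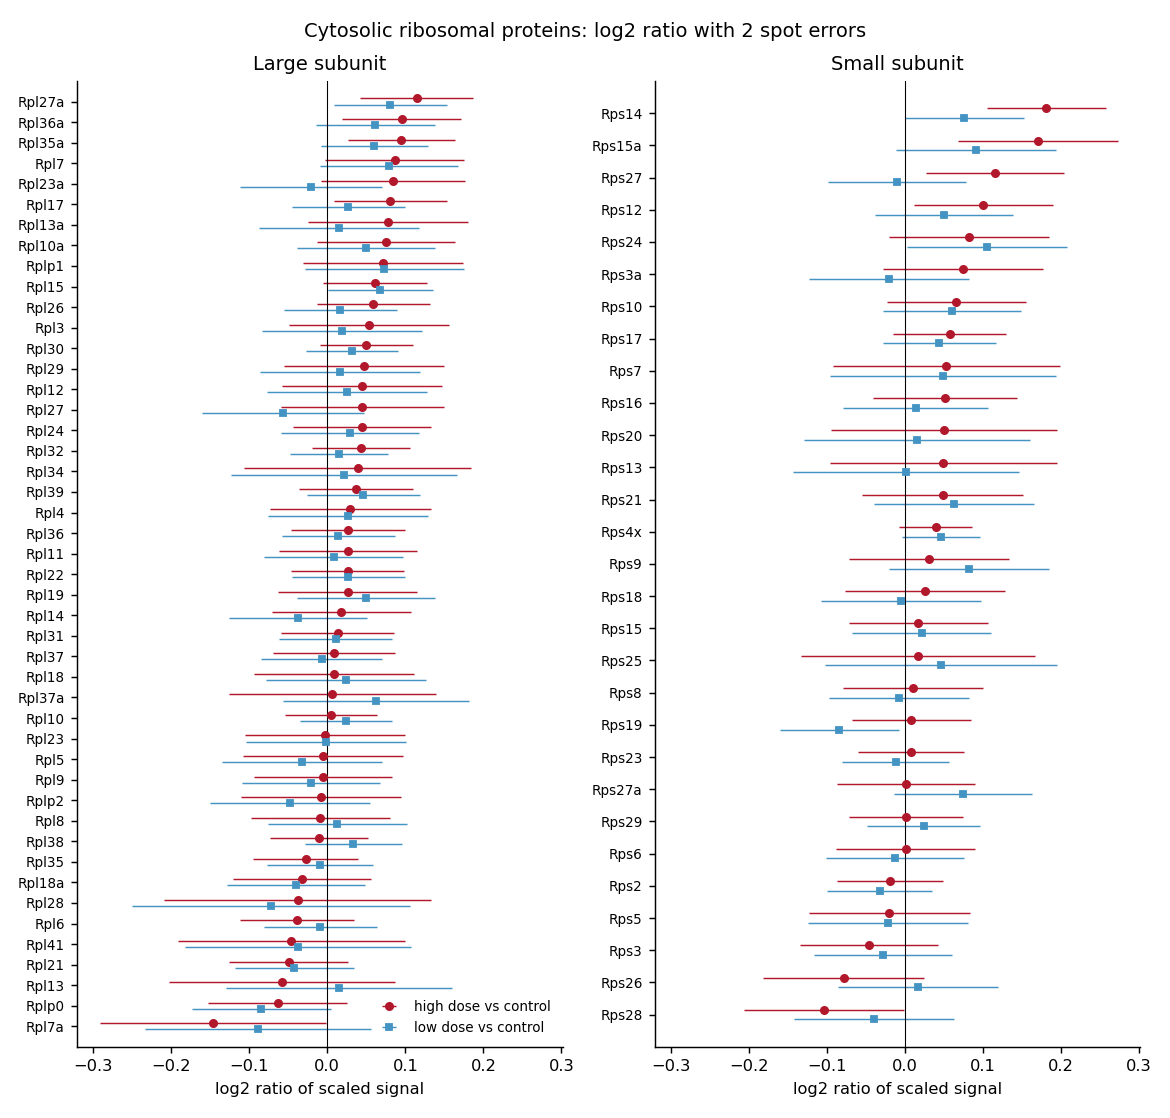
Log2 ratio of the scaled signal for standard large and small subunit proteins, high dose (red circles) and low dose (blue squares) against control, with bars of 2 spot errors, sorted by the high dose value. Most bars cross 0; Rps14, Rps15a, Rps27, Rps12, Rpl27a, Rpl36a, Rpl35a and Rpl17 lie to the right and Rpl7a and Rps28 to the left of it for the high dose, and centring on the spike-in probes would shift all points to the right by 0.15 and 0.16.

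The acidic stalk recruits the translational GTPases, and its parts did not share a direction. Rplp0, the stalk base, had 369 at the high dose, 364 at the low dose and 386 in the control, with log2 ratios of -0.064 ± 0.044 and -0.084 ± 0.044. Quantile normalization, which ties the brightest probes of the arrays together, brought these to 0.0059 and -0.0036. Rplp1 gave 186, 186 and 177, with ratios of 0.072 ± 0.051 and 0.073 ± 0.051. Rplp2 gave 273, 266 and 275, with ratios of -0.0084 ± 0.051 and -0.048 ± 0.051. Each of these was within 2 spot errors of 0.

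Rpl5 and Rpl11 join the 5S rRNA in the particle that can bind Mdm2 when ribosome assembly fails. Rpl5 was level at 34.1, 33.4 and 34.2, and Rpl11 at 108.7, 107.3 and 106.7. Their log2 ratios of high dose to control were -0.0050 ± 0.051 and 0.027 ± 0.044. Around the exit tunnel, 6 of 7 genes lay above 0 at the high dose, beside 72.8% of the family, and their median was 0.037. In the small subunit the head list (14 genes) had a median of 0.017 and the body and platform list (16 genes) one of 0.044. The last list holds Rps14, Rps15a and Rps27. At the low dose its median was 0.0086, and quantile normalization put that at -0.0069. Rps6, the target of the S6 kinases, did not stand apart, at 70.9, 70.3 and 70.9. Rps27a, made as a fusion with ubiquitin, gave 96.0, 101 and 96.0, with probes of opposite sign at the high dose.

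Ribosomal protein genes are often used as reference genes in RT-PCR, so their levels were compared one by one. Rpl13a stood at 166 at the high dose, 159 at the low dose and 157 in the control, a log2 ratio of 0.078 ± 0.051. Rpl32 (0.044 ± 0.031), Rpl4 (0.030 ± 0.051), Rpl19 (0.026 ± 0.044) and Rps18 (0.025 ± 0.051) lay closer to the control, and Rplp0 below it as given above. At the low dose the same 6 genes ran from -0.084 for Rplp0 to 0.050 for Rpl19. None of the 6 left 2 spot errors in either comparison. With quantile normalization Rplp0 moved from -0.064 to 0.0059 at the high dose and Rpl13a from 0.078 to 0.071, so the distance between these ends of the range rests partly on the scaling.

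The low dose gave still smaller differences. Over 93 genes the median log2 ratio to the control was 0.019, a 1.01-fold difference, against 0.00090 for all 14621 measured genes and 0.019 for the 1377 bright genes that are no members. None of these 93 was 2-fold apart (0.116% of all measured genes). Again Rps19bp1 alone was 1.2-fold higher (3.99%) and Rpl10l alone 1.2-fold lower (5.08%). Of the 93, 61 (65.6%) were above 0, against 50.4% of all measured genes but 64.1% of the other bright genes, so the members hardly differed from genes of like brightness. With quantile normalization the share was 59.1% against 50.8%, and with normexp 57.0% against 51.0%. Beyond 2 spot errors, 4 were higher (4.30% against 4.16%) and 1 was lower (1.08% against 4.40%). These shares of clearly changed values were near or below the background. The SD of the standard members was 0.044, no larger than their spot error of 0.049.

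Rpl22l2 was the highest of those 4, with 12.9 at the low dose, 12.5 at the high dose and 11.5 in the control, a low dose log2 ratio of 0.17 ± 0.074. The others were Rps24, a Diamond-Blackfan gene (46.1 against 42.9 in the control, 0.11 ± 0.051), Rpl27a (0.081 ± 0.036) and Rpl15 (0.068 ± 0.034). Rpl15 rests on 1 probe with a scaled signal of 0.58 in the control, the lowest of the standard members. Rps24 was also above the control at the high dose, at 0.082 ± 0.051. The lower gene was Rps19, the head protein most often mutated in Diamond-Blackfan anaemia. It stood at 106 at the low dose, 113 at the high dose and 112 in the control, a low dose ratio of -0.085 ± 0.038, with probes from -0.14 to -0.032. Both treated groups share the control array, so the values of a gene in these 2 comparisons are not independent. The 11 listed Diamond-Blackfan genes had medians of 0.057 and 0.044 at the high and low dose, with 9 of 11 above 0 in each, where the whole family had 72.8% and 65.6%. With normexp these medians were 0.031 and 0.022, and with quantile normalization the low dose one was 0.020.

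Setting the 2 doses against each other left the family flat as well. The median log2 ratio of high to low dose was 0.014 over 92 genes, where all 14480 measured genes gave -0.0086. None of these 92 was 2-fold apart (0.0760% of all measured genes), 1.2-fold higher (6.97%) or 1.2-fold lower (6.13%). Of the 92, 56 (60.9%) were above 0, against 47.0% of all measured genes and 42.3% of the other bright genes. Beyond 2 spot errors, 5 were higher (5.43% against 9.75% of all measured genes) and 2 lower (2.17% against 10.8%). The other bright genes gave 4.04% and 8.96%. The members' share of lower genes was thus under both backgrounds, and that of higher genes only under the share of all measured genes. The higher ones were Rps27 (0.13 ± 0.044), Rpl23a (0.10 ± 0.043), Rps14 (0.10 ± 0.037), Rpl27 (0.10 ± 0.050) and Rps19 (0.092 ± 0.037). Rpl27 rests on a probe at 0.18, its other probe giving 0.022. The lower ones were the Rps27 paralogues Rps27l (-0.10 ± 0.050) and Rps27l3 (-0.11 ± 0.050), whose levels were 23.8 at the high and 25.5 at the low dose for the first and 17.2 and 18.5 for the second. For the high dose against the control, which uses the same high dose array, Rps27l gave -0.054 ± 0.051 and Rps27l3 -0.066 ± 0.051, both within 2 spot errors.

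The subunits did not separate. Median log2 ratios at the high dose were 0.027 for 56 Rpl and 0.021 for 36 Rps genes, a difference of 0.0058. At the low dose both gave 0.019, and for high against low dose the difference was 0.012. Among the standard proteins alone the high dose difference turned to -0.0017. These gaps are small beside the SD between genes of 0.083 for Rpl and 0.084 for Rps at the high dose. Those SDs include the dim Rpl10l and Rps19bp1, and an SD between genes does not measure the error of a difference between medians. The bright Rps genes scattered somewhat more than the bright Rpl genes at the high dose (SD 0.068 and 0.051, each with a spot error near 0.050), but not at the low dose (0.043 and 0.046).

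Several tissue-restricted or near-identical copies are known for this family. Rpl3l, the muscle form of Rpl3, was not well above background on any array, and neither was Rpl17l1, while Rpl3 itself stood at 116, 113 and 112. Rpl10l, the testis form of Rpl10, had 1 probe near background at 0.041 at the high dose, 0.036 at the low dose and 0.057 in the control. Its ratios of -0.46 ± 0.34 and -0.67 ± 0.36 are within 2 spot errors, and Rpl10 was level, between 122.1 and 124.2 on all arrays. Rps19bp1 was as dim, at 0.043, 0.046 and 0.034, with ratios of 0.33 ± 0.25 and 0.40 ± 0.25. Rpl31l1 passed the background on the low dose array (0.025) and the control array (0.024) but not at the high dose. There its single spot read 0.011 and carries no fold, since other member spots as bright as 0.023 also missed the background flag on that array.

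Rpl22l1, a paralogue that can replace Rpl22, gave 3.21 at the high dose, 3.17 at the low dose and 2.98 in the control. Its log2 ratios were 0.11 ± 0.056 and 0.087 ± 0.056, while Rpl22 gave 0.026 ± 0.036 and 0.027 ± 0.036. The Rpl22l2 probe (chr2:116170577-116170636 on rn4, plus strand) overlaps a Rpl22l1 probe (chr2:116170613-116170674, plus strand), so these names report on 1 locus. All 3 probes there were above 0 at both doses, and each was within 2 spot errors at the high dose. Rpl39l, a copy of Rpl39, gave 0.094 ± 0.073 and Rpl39 0.037 ± 0.036 at the high dose. Rpl36al followed Rpl36a, at 0.081 ± 0.053. Rpl7 gave 0.086 ± 0.044 and its distant relative Rpl7l1, a nucleolar protein, 0.013 ± 0.060.

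Some probes of different names are partly alike in sequence. Those of Rpl34 and Rpl34l1 matched at 32 of 34 letters, and their high dose log2 ratios were 0.039 ± 0.073 and 0.031 ± 0.051. Those of Rplp1 and Rplp2, whose acidic ends resemble each other, matched at 25 of 31 letters. The stretches below, 30 bases of each probe, show this, with capitals where their letters differ.
Rplp1: GgaTgacatgggatttTgTctTtttgaCta
Rplp2: TgaCgacatgggatttGgCctGtttgaTta
Their log2 ratios at the high dose were 0.072 ± 0.051 for Rplp1 and -0.0084 ± 0.051 for Rplp2. Rpl5l1 has its probe 45 bases from that of Rpl5 on rn4, so these 2 names mark 1 locus of that build. It gave a high dose log2 ratio of 0.015 ± 0.051 beside -0.0050 ± 0.051 for Rpl5. How much RNA the names of such pairs share was not tested. Leaving all 19 nonstandard names out gave a high dose median of 0.026.

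Genes with several probes show how far a single value can be trusted. Over 50 such genes the SD between probes of a gene was 0.049 at the high dose, 0.046 at the low dose and 0.055 for high against low dose, about the size of the spot error. All probes of a gene shared a sign in 28, 32 and 25 of the 50. At the high dose these were 24 genes above and 4 below 0. The same counts over all genes with several probes are not reported here, so these have no background beside them. The widest gap among the standard members was in Rpl37a, with probes at 0.11, 0.054 and -0.14. The last of these was a dim probe placed on another chromosome than the other two. For the members with 10 spots the arrays can be compared spot by spot. Rpl15 had a median of 0.613 (0.523 to 0.675) at the high dose, 0.617 (0.555 to 0.689) at the low dose and 0.564 (0.525 to 0.644) in the control. Rps4x had 83.6 (78.9 to 87.1), 83.6 (80.7 to 86.7) and 80.6 (78.9 to 83.8). The spots of the 3 arrays overlapped in both genes.

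**Figure D3:**
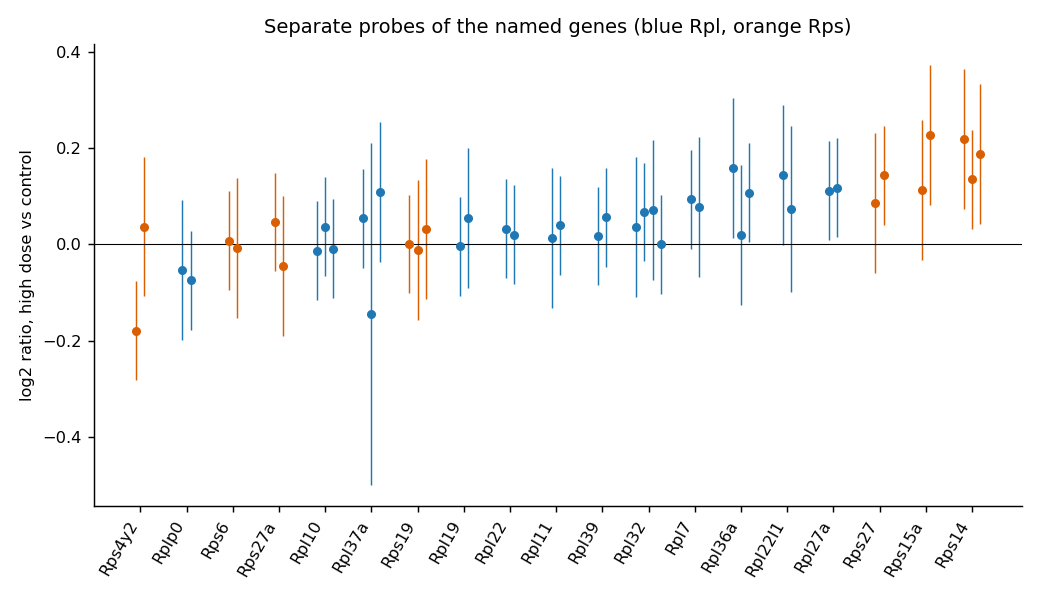
Log2 ratio of high dose to control for each probe of the named genes with at least 2 probes above background, with bars of 2 spot errors, blue for Rpl and orange for Rps genes. All 3 probes of Rps14 and both of Rps15a and Rpl27a lie above 0, while Rps4y2 and Rpl37a hold probes of opposite sign; centring on the spike-in probes would raise every point by 0.15.

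Other parts of the translation machinery were set beside the family. Ribosome assembly factors had a median log2 ratio of -0.061 at the high dose over 45 genes, with 34 below 0, and -0.045 at the low dose, also with 34 below 0, against 0.027 and 0.019 for the ribosomal proteins. Relative to the spike-in probes these medians become 0.093 and 0.11, so their sign turns with that scaling. Under the other 4 scalings they stayed between -0.070 and -0.045 at the high dose. Beyond 2 spot errors, 8 of the 45 assembly factors were lower and 4 higher at the high dose, where all measured genes gave 12.8% and 10.7%. At the low dose 7 were lower and 1 higher, where all measured genes gave 4.40% and 4.16%. Heatr1, a factor for rRNA transcription, gave -0.31 ± 0.087 at the high dose. Bysl gave -0.26 ± 0.066 there and the H/ACA protein Nhp2 -0.25 ± 0.056, while the helicase Ddx10 gave 0.26 ± 0.072 and Wdr3 0.23 ± 0.10. The mitochondrial ribosomal proteins (70 genes) had a median of -0.025 at the high and 0.014 at the low dose, with 13 lower and 4 higher beyond 2 spot errors at the high dose, beside the same 12.8% and 10.7%. The high dose median was -0.011 with quantile normalization, -0.0085 on the scale of the authors' table and 0.13 with spike-in centring, which turns its sign. Mrps12 (-0.25 ± 0.054) and Mrps27 (0.25 ± 0.13) marked its ends.

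Elongation and other factors whose mRNAs are also known to carry a TOP motif were compared next. Over 20 of them, which include ribosomal proteins under other names, the median was -0.014 at the high dose, with an SD of 0.094, beside 0.083 for the ribosomal protein genes. For low dose against control these SDs were 0.053 and 0.093. Both family values, 0.083 and 0.093, include the dim Rpl10l and Rps19bp1. The 76 standard members, which leave out these and the other nonstandard names, had SDs of 0.056 (high dose) and 0.044 (low dose). Each was smaller than that of the 20 factors. The high dose median of the factors turned to 0.0021 on the scale of the authors' table and to 0.14 with spike-in centring. Eef1d (-0.22 ± 0.044), Eif3l (-0.15 ± 0.084) and Eef2 (-0.15 ± 0.051) were lowest, and Eif4b (0.15 ± 0.036) and Tpt1 (0.12 ± 0.040) highest. Of the ribosomal proteins outside the naming rule, Fau was at 0.038 ± 0.030, Gnb2l1 at -0.013 ± 0.051 and Rpsa at -0.041 ± 0.046, each within 2 spot errors. Initiation factors (23 genes) had a median of -0.025, or 0.13 with spike-in centring, between Eif3b (-0.25 ± 0.057) and Eif2s1 (0.12 ± 0.053). Among 16 measured regulators of ribosomal protein mRNAs, Myc had 6.12 at the high dose, 4.66 at the low dose and 4.53 in the control, a ratio of 0.43 ± 0.024. Ddit4, an inhibitor of mTORC1 signalling, gave 2.77, 2.55 and 2.26 and a ratio of 0.30 ± 0.039. Tsc1, another inhibitor, was highest at 0.52 ± 0.25 but dim, at 0.042, 0.043 and 0.030. Rptor, the mTORC1 scaffold, gave 4.89, 5.36 and 5.41 (-0.15 ± 0.025), and Larp1 1.53, 1.47 and 1.69 (-0.14 ± 0.093). The translation repressor Eif4ebp2 gave 2.74, 2.99 and 3.03 (-0.14 ± 0.060). The brighter Eif4ebp1, of the same family, gave 68.03, 65.63 and 63.55 and a ratio of opposite sign, 0.098 ± 0.051, within 2 spot errors.

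**Figure D4:**
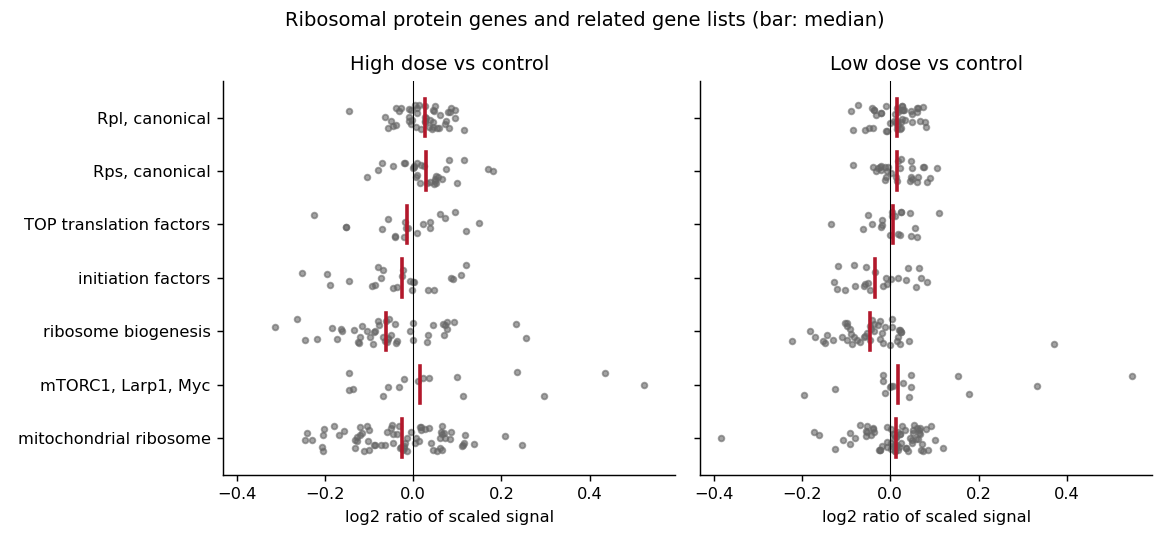
Log2 ratios against the control for each gene (grey points) of the standard Rpl and Rps proteins and of related lists, high dose on the left and low dose on the right, with red bars at the medians. The Rpl and Rps points are packed between -0.15 and 0.18, and the ribosome biogenesis median lies at -0.061 and -0.045; centring on the spike-in probes would move every point to the right by 0.15 and 0.16.

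Genes with and without the pyrimidine run at their start had similar ratios. The 43 standard genes with a run had median log2 ratios to the control of 0.026 (high dose) and 0.022 (low dose), and the 18 without one gave 0.018 and 0.011. Genes at both ends of the ranking carried a run, as Rpl27a, Rps15a and Rps28 do above, and genes without one included both Rpl36a and Rpl7a.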

How the data were processed

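RNA of 3 ROS17/2.8 cultures was measured on 1-colour arrays of design 028279, with probe coordinates on rn4. The spot intensity values the authors deposited are scanner output, extracted with Agilent Feature Extraction 10.7.3.1, background-subtracted and detrended but not normalized between arrays, per the file headers. Other flags in the deposited files mark spots well above background, saturated or outlying. The authors' deposited series table holds a ratio: each column equals the intensity over 1 constant (823, 849 and 823), to within 0.0001%, and its making is not described in the labels or headers. The column medians were 0.0734, 0.0731 and 0.0737.

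The main value was log2 intensity minus the array's 75th percentile over 58717 spots. Outlier spots were left out, spots of a probe averaged, and a probe kept where at least 50% of its spots were well above background on both arrays. Genes are means over such probes. Repeat spots gave the spot error, pooled in 20 bins of level, and the calculation was tested on simulated data. RefSeq matched 140 of 166 probes by accession, with another symbol for 5 (Rpl36al, Rpl37, Rpl39l), and the names in the files were kept. Bright genes are the top 10% by level. Calls used 1.2-fold, 2-fold or 2 spot errors, with no test, since groups hold 1 array. The 10 alternatives covered scaling (spike-in probes, median, quantile, normexp by limma 3.58.1 with offset 50, the authors' table), outliers, background filters, probe choice and names. Named genes were the 4 highest and 4 lowest per subunit at the high dose, the 3 highest and 3 lowest at the low dose, members past 1.2-fold, the 3 widest probe gaps, stalk, paralogue and reference genes and, of the other lists, the 2 highest and 2 lowest. Not all genes the rule selects are reported here, and others were chosen after their values were seen. The members and gene lists were chosen with earlier results of these data known.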

Additional observations from a re-analysis of the deposited data

How the results depend on the processing

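No paired analysis was possible because each group holds 1 array, and no replicate could be left out. The median of the ribosomal protein genes stayed above 0 in all 3 comparisons under the 10 alternatives. It moved beyond the spread only with centring on the spike-in probes, to 0.18 for either dose against the control, and the median of all measured genes moved with it. The distance from that median was 0.035 and 0.018 in the main setting, 0.020 and 0.0071 with quantile normalization and 0.018 and 0.0015 with normexp. The number of members past 1.2-fold against the control, 2 at each dose, was 8 and 4 with spike-in centring, 5 and 4 with every member probe kept, 1 and 1 where all repeat spots had to be well above background, and 0 and 0 with normexp or with standard names only. For high against low dose it was 0, and 3 with every member probe kept. For these alternatives the share of all measured genes past 1.2-fold is not reported here, so the counts cannot be set against a background. Of 80 values of named genes, 76 moved with spike-in centring, 9 with the brightest probe of a gene, 4 with normexp, 2 with quantile normalization and 2 with every member probe kept. Requiring all repeat spots to be well above background moved 7, while 59 stayed within their spot error. The cause of these was not tested. With 1 array per group, differences of the size of the spot error cannot be resolved, and the variation between cultures was not measured.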
